A study of Mus musculus with 6 samples.

Results

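The genes described here carry out glycolysis or answer to low oxygen. They were chosen by gene symbol from these roles, with earlier results of these data known, and not by a threshold on the values. There were 40 of them among the 21456 genes of the table, and all 40 were found. They were grouped by role into 2 glucose transporters, 14 glycolytic enzymes, 4 PFKFB regulators of glycolytic flux, 4 lactate enzymes or transporters, 3 pyruvate dehydrogenase kinases, 5 subunits or prolyl hydroxylases of the hypoxia inducible factor (HIF) and 8 targets of the hypoxia response. Bulk RNA-seq of whole adipose tissue was performed on 3 control mice, which carried the Ntsr2 flox/flox allele without Cre, and 3 Ntsr2 AKO mice, which carried the same allele together with Adipoq-cre. The floxed allele has a loxP site before the first and another after the last exon of Ntsr2, which encodes neurotensin receptor 2, and both groups were fed a chow diet. The study calls the tissue white adipose, its methods for this experiment name no depot, age or sex, and the libraries are called control 3, 4 and 5 and AKO 3, 4 and 5 after their labels. Adipoq-cre acts in adipocytes, while the RNA came from the whole tissue, so that fewer cells of a type and less RNA per cell cannot be told apart.

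Glycolysis turns glucose into pyruvate, which is either reduced to lactate and exported or oxidized in mitochondria once pyruvate dehydrogenase is active. HIF is a transcription factor made of an oxygen-regulated alpha subunit and the constant partner ARNT. When oxygen is plentiful, prolyl hydroxylases mark the alpha subunit for degradation, and when it is scarce HIF raises transcripts for glucose uptake, glycolysis, angiogenesis and collagen modification. In adipose tissue glycolysis also supplies glycerol phosphate for triglyceride storage, and HIF is known for its activity in fat that expands beyond its blood supply.

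The deposited values are normalized counts, which are read counts divided by a size factor for each mouse. Division by the step of the low values returned whole reads for 100% of values, with 60405373 to 66098226 reads in control mice and 54085088 to 56268725 in AKO mice. Ntsr2, the targeted gene, had normalized counts of 83.8, 64.0 and 152.5 in control 3, 4 and 5 and 3.10, 8.29 and 0 in AKO 3, 4 and 5. Adipoq, the adipocyte hormone adiponectin, was at 163803 to 220865 in the 6 mice, and Ucp1, which defines brown fat, at 0 to 55.7. Transcripts of skeletal muscle set 3 mice apart. The summed normalized count of 15 muscle markers, all of them in the table, was 3284, 3207 and 3426282 in control 3, 4 and 5 and 3808, 114093 and 248694 in AKO 3, 4 and 5. Ckm, the muscle creatine kinase, was listed at 3.68, 3.10 and 364935 in the controls and at 0, 11037 and 27228 in AKO mice, and the myosin Myh1 was at 0 in control 3, control 4 and AKO 3. Control 5, AKO 5 and AKO 4 thus held muscle RNA in falling order, and results that rest on them are given with and without them.

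Of the 40 genes none passed the threshold by limma between Ntsr2 AKO and control mice, and neither did Ntsr2 itself. The 3 transcripts of the 40 with the smallest p were lower in AKO mice. P4ha1, which encodes the catalytic subunit of collagen prolyl hydroxylase, Slc2a1, which encodes the basal glucose transporter GLUT1, and Hif1a, the inducible alpha subunit itself, reached 62.2%, 67.2% and 72.7% of the control mean. Pfkfb1, an isozyme that makes and breaks the glycolytic activator fructose 2,6-bisphosphate, stood at 1.30 times the control mean. The enzymes of glycolysis proper showed no such separation, apart from the scarce Aldoc, and their median log2 fold change was -0.39 with all mice, 0.06 without control 5 and -0.14 without the 3 mice with muscle RNA.

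All 40 genes had a mean normalized count of at least 10 over the 6 mice and were tested with limma on log2(normalized count + 1). With Benjamini-Hochberg adjustment over 16157 genes, 0 of 40 reached an adjusted p under 0.05, and 0.00619% of all genes did. At an unadjusted p under 0.05, limma found 3 of 40 genes lower in AKO mice, against 5.27% of all genes, and 1 of 40 higher, against 3.08%. In 5 of 40 genes every AKO mouse was below every control mouse, as in 8.16% of all genes, and in 1 of 40 every AKO mouse was above, as in 6.82%. Those 5 were Slc2a1, Hif1a, P4ha1, Pfkfb4 and Aldoc, and the other was Pfkfb1. On recovered reads, edgeR called 0 of 40 genes and 0 genes in all. DESeq2 called P4ha1 and Hif1a lower, 2 of 40 genes against 0.947% of all genes, among 219 genes called in either direction. Ntsr2, the targeted gene, was not called by limma (adjusted p = 0.499) or edgeR (adjusted p = 0.569) and was called by DESeq2 (adjusted p = 0.00012). A gene that limma or edgeR did not call may thus still differ. For P4ha1, Hif1a, Slc2a1 and Pfkfb1 the adjusted p from DESeq2 was the smallest of those under the alternatives, and the largest was 1.

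**Figure D1:**
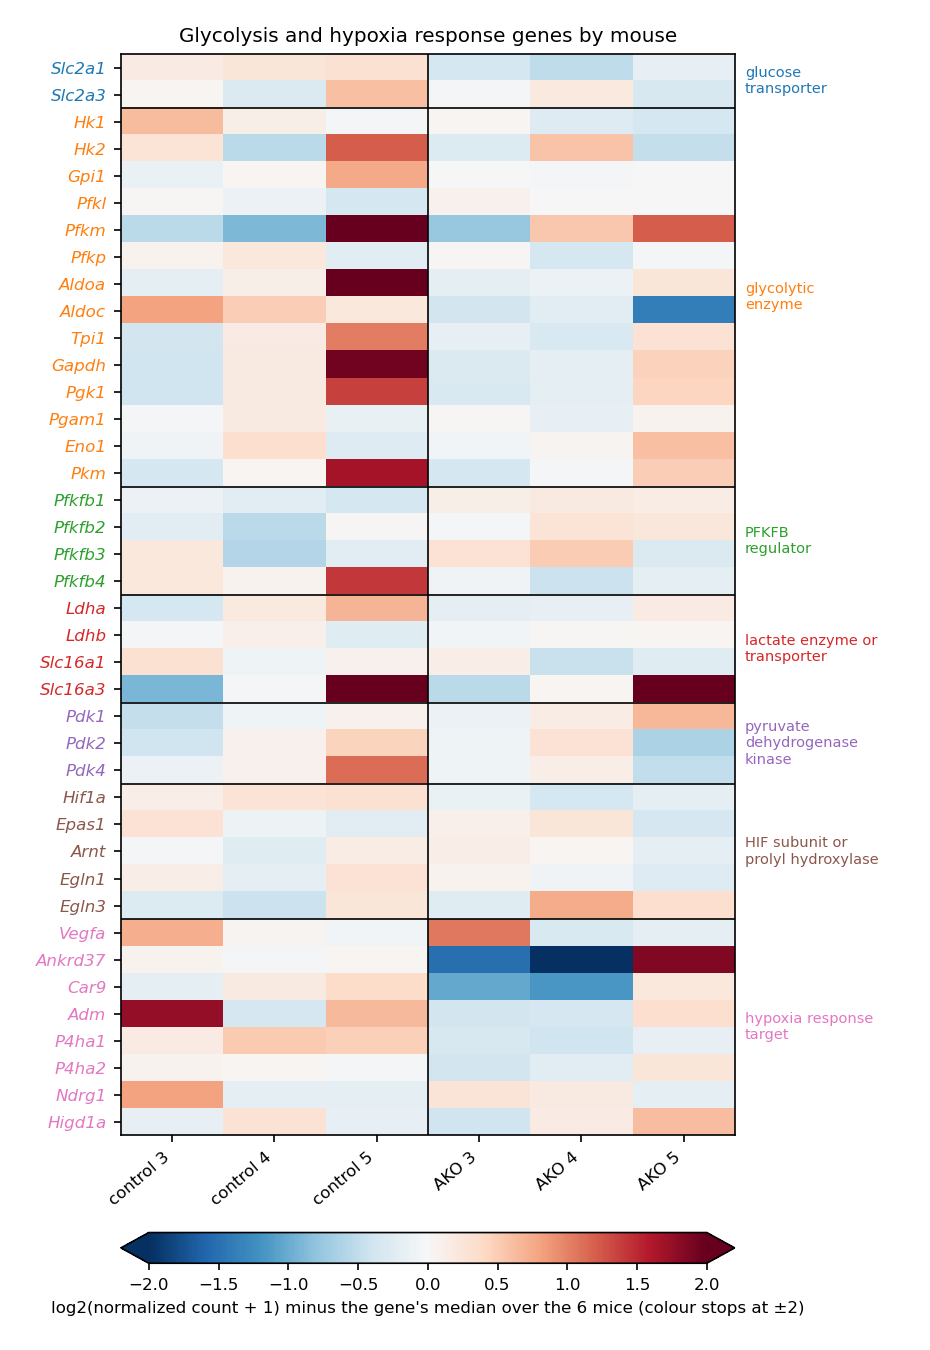
Heat map of the 40 genes (rows, by role) in the 6 mice (columns), where colour is the log2(normalized count + 1) minus the median of that gene over the 6 mice and stops at 2 in either direction. The darkest red cells are Pfkm, Aldoa, Gapdh and Slc16a3 in control 5 and Slc16a3 in AKO 5, and Slc2a1, Hif1a and P4ha1 are pale red in all 3 controls and pale blue in all 3 AKO mice.

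The log2 fold change was below 0 for 29 of 40 genes with a median of -0.23, while the median over all genes tested was -0.01. Without control 5, 19 of 40 were below 0 and the median was 0.02. Omission of the 3 mice that held muscle RNA left control 3 and control 4 against AKO 3, a comparison chosen after the data were seen. In it 27 of 40 were below 0 and the median was -0.09. The lower median in AKO mice was not present without control 5.

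**Figure D2:**
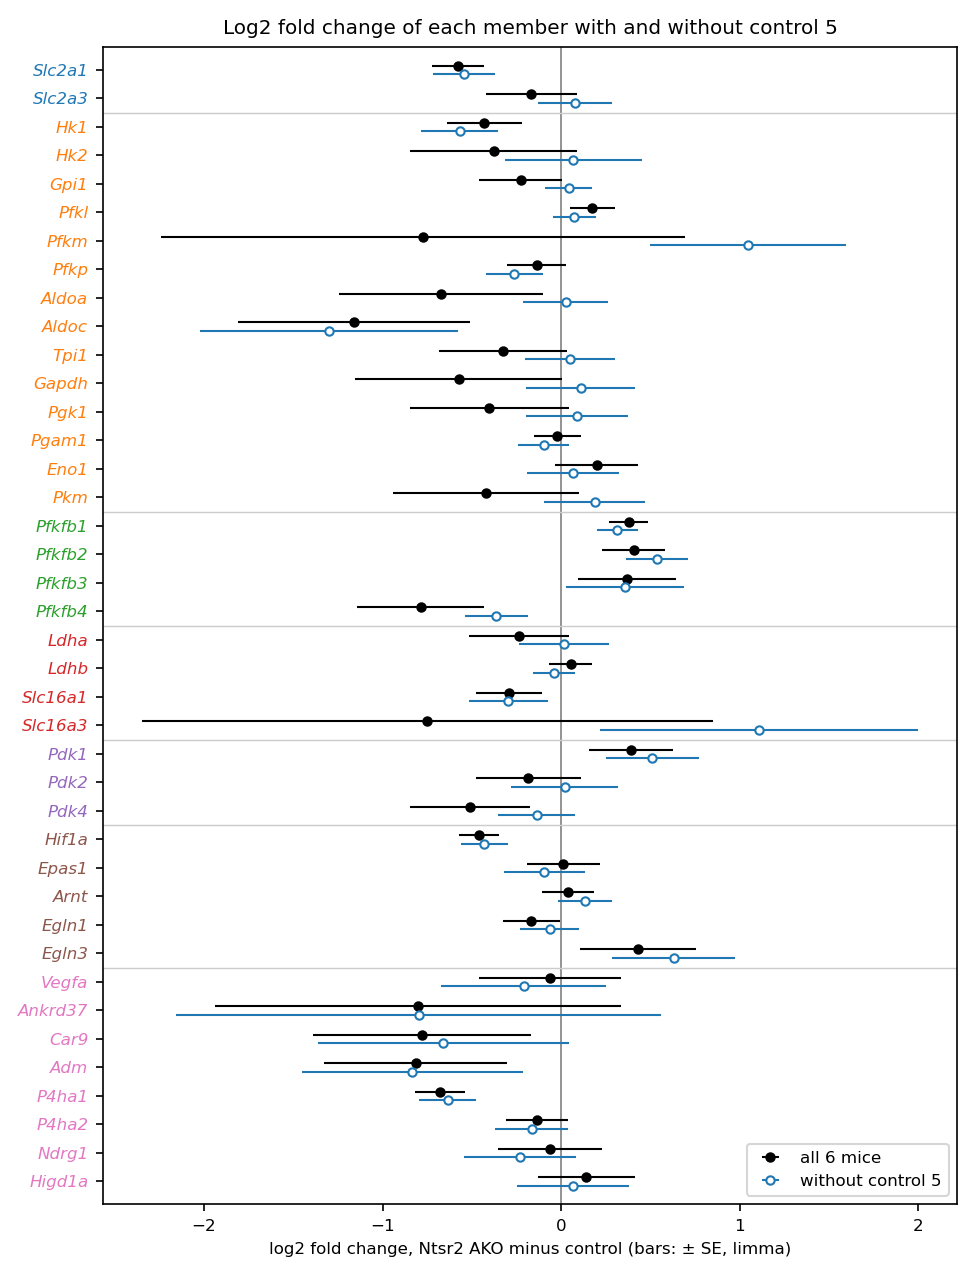
Log2 fold change of Ntsr2 AKO over control for the 40 genes (rows, names coloured by role as in the heat map), with bars for the SE from limma, for all 6 mice (filled) and without control 5 (open). P4ha1, Slc2a1 and Hif1a stayed at -0.64, -0.55 and -0.43 without control 5, while Pfkm and Slc16a3 moved to 1.05 and 1.11.

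Glucose enters adipose cells by transporters of the Slc2a family. Slc2a1 had normalized counts of 920.3, 977 and 1012 in control 3, 4 and 5 and 643, 577 and 736 in AKO 3, 4 and 5. The control mice lay close together and the highest AKO mouse was below the lowest of them. The mean was 969.8 ± 46.3 in control and 652 ± 79.6 in AKO mice (SD, n = 3), a log2 fold change of -0.58 ± 0.15 (SE) with an adjusted p of 0.522 by limma and of 0.0590 by DESeq2. The difference was -0.55 without control 5 and -0.56 without the 3 mice with muscle RNA. Slc2a3, which encodes the high-affinity transporter GLUT3, ranged from 1135 to 2123 in control and from 1114 to 1599 in AKO mice, so that the groups overlapped. Its log2 fold change was -0.17 ± 0.26 with all mice and 0.08 without control 5.

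Among the 14 glycolytic enzymes, 12 had a log2 fold change below 0 with a median of -0.39, and none passed the threshold. Without control 5, 4 of 14 were below 0 and the median was 0.06, and without the 3 mice with muscle RNA 12 of 14 were below 0 and the median was -0.14. In 8 of the 14, control 5 was more than 1.5 times every other mouse, and it was so in 11 of all 40 genes. Pfkm encodes the muscle isozyme of phosphofructokinase, the committing step of glycolysis, and had normalized counts of 1319, 1033 and 51350 in control 3, 4 and 5 and 1139, 2784 and 4422 in AKO 3, 4 and 5. The 3 mice with muscle RNA were the 3 highest, in the order of their muscle markers. Above the mean of control 3, control 4 and AKO 3, the excess of Pfkm in AKO 4 and AKO 5 was 3.23% and 6.49% of that in control 5, and the corresponding shares for the summed muscle markers were 3.23% and 7.17%. The log2 fold change of Pfkm was -0.77 ± 1.47 with all mice, 1.05 ± 0.55 without control 5 and -0.04 without the 3 mice with muscle RNA.

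Aldoa, the aldolase of muscle and most other tissues, was 68891, 84919 and 327324 in control 3, 4 and 5 and 69526, 72874 and 93041 in AKO 3, 4 and 5. The 5 mice other than control 5 lay within a narrow band, and the excess of Aldoa in AKO 5 was 7.35% of that in control 5, while AKO 4 lay below the mean of the muscle-poor mice, at -0.62%. Its log2 fold change was -0.67 ± 0.57 with all mice and 0.03 without control 5. Gapdh, which oxidizes glyceraldehyde phosphate and is often used as a reference transcript, was 32996, 49171 and 166376 in the controls and 35763, 38450.4 and 59576 in AKO mice. It went from -0.57 ± 0.58 to 0.11 on the log2 scale when control 5 was left out. Pkm, Pgk1, Tpi1, Hk2 and Gpi1, which encode pyruvate kinase, phosphoglycerate kinase, triose phosphate isomerase, hexokinase 2 and glucose phosphate isomerase, were likewise highest in control 5, at 3.25, 2.92, 2.28, 2.80 and 1.70 times the median of the other 5 mice. All 5 had log2 fold changes below 0 with all mice, from -0.42 for Pkm to -0.23 for Gpi1, and above 0 without control 5, from 0.19 for Pkm to 0.04 for Gpi1. For Gapdh the excess in AKO 4 and AKO 5 was -0.68% and 15.9% of that in control 5. These shares were 4.82% and 23.4% for Pkm, -1.36% and 26.4% for Pgk1 and -10.4% and 26.7% for Tpi1. They were 41.5% and -13.7% for Hk2 and 1.37% and 4.40% for Gpi1, beside 3.23% and 7.17% for the summed muscle markers.

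In the other 6 enzymes control 5 was not the highest mouse. Pfkl, the liver-type phosphofructokinase, ranged from 4608 to 5970.2 in control and from 5856 to 6249 in AKO mice (log2 fold change 0.17 ± 0.13), and Pfkp, the platelet type, from 4275 to 5825 and from 3925 to 5120 (-0.14 ± 0.16). Pgam1, a phosphoglycerate mutase, differed by -0.02 ± 0.13 and the enolase Eno1 by 0.20 ± 0.23. Hk1, the hexokinase of most tissues, was 1853, 1295 and 1165 in control 3, 4 and 5 and 1222, 1000.2 and 932 in AKO 3, 4 and 5, with AKO 3 between the controls. Its log2 fold change was -0.43 ± 0.21 (limma, adjusted p = 0.618), and -0.57 without control 5. Aldoc, the brain-type aldolase, was scarce at 22.1, 17.5 and 14.4 in control and 9.29, 10.4 and 4.05 in AKO mice. Its groups did not overlap, and at so few reads counting error adds to the spread between mice. The difference was -1.16 ± 0.65 (limma, adjusted p = 0.657).

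**Figure D3:**
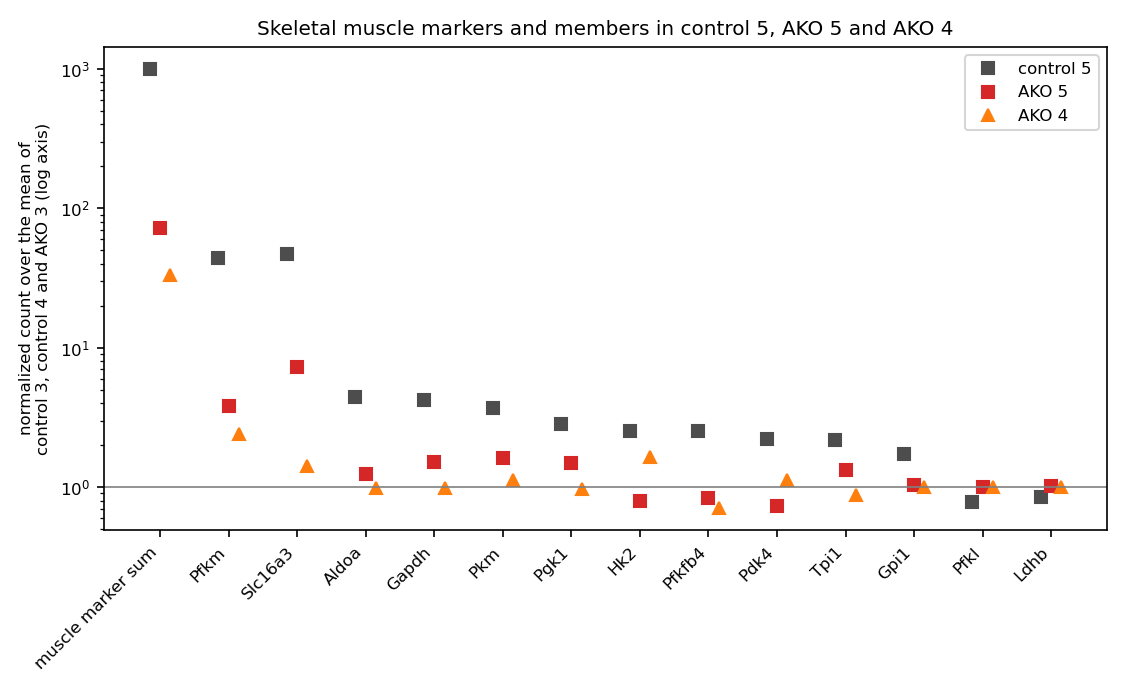
Normalized counts of control 5, AKO 5 and AKO 4 as multiples of the mean of control 3, control 4 and AKO 3 (log axis), for the summed 15 muscle markers and 13 genes, with a line at 1. Control 5 stood at 998 times that mean for the muscle markers, 44.1 times for Pfkm and 4.40 times for Aldoa, while Pfkl and Ldhb lay at 0.78 and 0.84 times.

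Levels per length were compared over all members as normalized counts per kilobase of annotated exon. The length was the union of all annotated exons of a gene, 4133 bases for Gapdh and 3310 for Ldha. It can exceed that of the transcript expressed, and the order of genes depends on it. Aldoa was the highest, at 18569 to 88228 per kilobase over the 6 mice, followed by Ldha at 15381 to 31522 and Gapdh at 7984 to 40256. Aldoa exceeded Ldha in all 6 mice although these ranges overlapped, and Ldha exceeded Gapdh in every mouse except control 5. By the mean over mice Aldoc at 1.24 to 6.77 and Car9 at 3.60 to 11.2 per kilobase were the lowest, and their ranges overlapped with each other and with that of Ankrd37 at 2.02 to 61.2. Among the alpha subunits of HIF, Epas1 at 2355 to 3633 per kilobase exceeded Hif1a at 506 to 795 in all 6 mice.

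The PFKFB isozymes set the level of fructose 2,6-bisphosphate, the strongest activator of phosphofructokinase. Pfkfb1 had normalized counts of 3351, 3165 and 2856 in control 3, 4 and 5 and 3966, 4140 and 4047 in AKO 3, 4 and 5. Every AKO mouse was above every control mouse, and the AKO mice lay within a span narrower than that of the controls. The mean was 3124 ± 250.1 in control and 4051 ± 87.1 in AKO mice (SD, n = 3), a log2 fold change of 0.38 ± 0.11 (SE) with an adjusted p of 0.522 by limma and of 0.104 by DESeq2. Pfkfb2 was 1234, 982 and 1454 in control and 1412, 1727 and 1679 in AKO mice, with AKO 3 below control 5 (0.40 ± 0.18, limma, adjusted p = 0.60). Pfkfb3, an inducible isozyme, ranged from 12084 to 21150.3 in control and from 14972 to 25757 in AKO mice (0.37 ± 0.27). Pfkfb4 was the only one of the 4 with a log2 fold change below 0. It was 981, 888 and 2257 in control and 811, 632 and 745 in AKO mice, so that the groups did not overlap but control 5 stood far above the rest. The difference was -0.79 ± 0.36 with all mice (limma, adjusted p = 0.607) and -0.36 without control 5.

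Pyruvate is exchanged with lactate by lactate dehydrogenase and lactate leaves or enters cells by the transporters MCT1 (Slc16a1) and MCT4 (Slc16a3). None of the 4 genes separated the groups. Ldha ranged from 50911 to 104338 in control and from 57550.3 to 72418 in AKO mice (log2 fold change -0.24 ± 0.28, and 0.02 without control 5), and Ldhb from 4229 to 5345 and from 4796 to 5092 (0.05 ± 0.12). Slc16a1 was 8805, 6649 and 7567 in control and 7778, 5194 and 5971 in AKO mice (-0.29 ± 0.18). Slc16a3, which is abundant in glycolytic muscle, was 80.1, 147.5 and 5219 in control 3, 4 and 5 and 104.3, 155.5 and 804 in AKO 3, 4 and 5. Control 5 and AKO 5 were the high mice, and the difference turned from -0.75 ± 1.6 to 1.11 without control 5.

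The pyruvate dehydrogenase kinases switch off the entry of pyruvate into mitochondrial oxidation. Pdk4, a kinase known for its induction by fasting, was 13760, 15830 and 32093 in control and 13937, 16348 and 10604 in AKO mice, with control 5 high and AKO 5 low. Its log2 fold change was -0.51 ± 0.34, and -0.14 without control 5. Pdk1, a HIF target, ranged from 2304 to 3391 in control and from 2952 to 5051 in AKO mice (0.39 ± 0.24), and Pdk2 from 4499 to 8084 and from 3817 to 7271 (-0.18 ± 0.29, and 0.02 without control 5).

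Hif1a had normalized counts of 4207, 4596 and 4690 in control 3, 4 and 5 and 3462, 2982 and 3370.1 in AKO 3, 4 and 5. The lowest control was above the highest AKO mouse, and the mice within each group lay close together. The mean was 4498 ± 256 in control and 3271 ± 255 in AKO mice (SD, n = 3), a log2 fold change of -0.46 ± 0.11 (SE) with an adjusted p of 0.520 by limma and of 0.0456 by DESeq2. It was -0.43 without control 5 and -0.34 without the 3 mice with muscle RNA. Epas1, which encodes the second alpha subunit HIF-2alpha, ranged from 14274 to 20308 in control and from 13164 to 19701 in AKO mice, a difference of 0.01 ± 0.20. Arnt, the common partner, differed by 0.04 ± 0.15, and Egln1, which encodes the main prolyl hydroxylase PHD2, by -0.17 ± 0.16. Egln3, a prolyl hydroxylase whose transcript is itself induced by low oxygen, was 160.1, 144.4 and 230.2 in control and 164.1, 324 and 246 in AKO mice (0.43 ± 0.33), with AKO 3 among the controls.

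Of the 8 targets of the hypoxia response, 7 had a log2 fold change below 0, and 1 had an unadjusted p under 0.05. That was P4ha1, which had normalized counts of 4822, 6220 and 5989 in control 3, 4 and 5 and 3467, 3279.5 and 3849 in AKO 3, 4 and 5. The groups were separated by a gap larger than the span of the AKO mice. The mean was 5677 ± 749.5 in control and 3532 ± 290.1 in AKO mice (SD, n = 3), a log2 fold change of -0.68 ± 0.14 (SE) with an adjusted p of 0.499 by limma and of 0.00823 by DESeq2. It was -0.64 without control 5 and -0.66 without the 3 mice with muscle RNA. P4ha2, the other catalytic subunit of this enzyme, was 1952, 1917 and 1823 in control and 1443, 1619 and 2199 in AKO mice, with AKO 5 above all controls (-0.14 ± 0.17).

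The remaining targets of this group, Vegfa, Adm, Ankrd37, Car9, Ndrg1 and Higd1a, did not separate the groups. Vegfa, the angiogenic growth factor, was 36950, 23308 and 21558 in control 3, 4 and 5 and 46328, 18062 and 19489 in AKO 3, 4 and 5, so that the highest and the lowest mouse were both AKO mice (-0.06 ± 0.40). Adm, which encodes the vasodilator adrenomedullin, was 1332, 313 and 621 in control and 304, 314 and 496 in AKO mice, with control 3 far above the others (-0.81 ± 0.51, limma, adjusted p = 0.688). Ankrd37 had 26.7, 24.8 and 25.9 in control and 8.26, 3.11 and 94.1 in AKO mice, so that AKO 5 stood on the other side of the controls from AKO 3 and AKO 4. Its log2 fold change was -0.80 ± 1.14 with limma and 0.46 with DESeq2. Car9, a cell-surface carbonic anhydrase, was 17.5, 22.7 and 25.9 in control and 9.29, 8.29 and 23.3 in AKO mice (-0.78 ± 0.61). Ndrg1, a stress-responsive gene, differed by -0.06 ± 0.29 and Higd1a, a mitochondrial protein induced by low oxygen, by 0.14 ± 0.27.

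**Figure D4:**
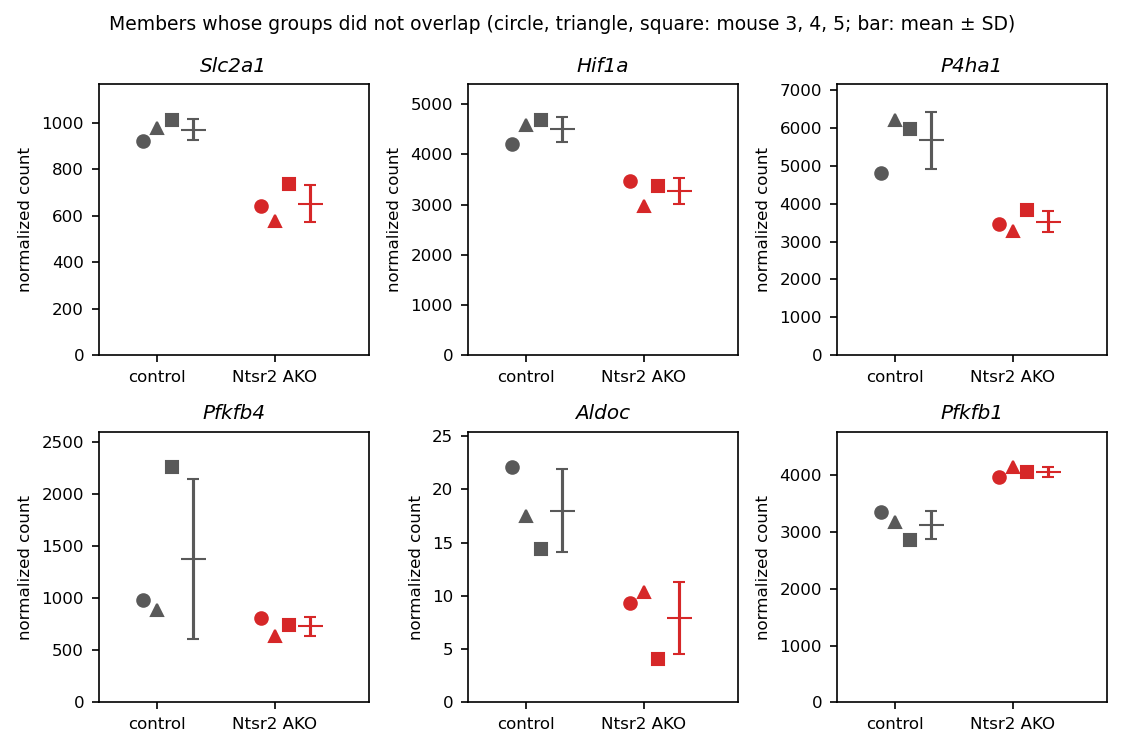
Normalized counts of the 6 genes whose groups did not overlap, in control (grey) and Ntsr2 AKO (red) mice, where circle, triangle and square are mouse 3, 4 and 5 and the bar is the mean ± SD (n = 3). Slc2a1, Hif1a, P4ha1, Pfkfb4 and Aldoc were lower and Pfkfb1 was higher in all 3 AKO mice, and the square of control 5 at 2257 widens the spread of Pfkfb4.

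HIF binds the core ACGTG or GCGTG, and the 3 lower genes with an unadjusted p under 0.05 are shown with the bases before their RefSeq start sites (GRCm38.p6, 5′ to 3′), where capitals mark either core on either strand. The Slc2a1 stretch is chr4:119108495-119108713 (+), cut where its annotated first exon begins apart from the match that reaches into it. Those of Hif1a and P4ha1 are chr12:73907617-73907866 (+) and chr10:59323046-59323295 (+). Slc2a1 lies on chromosome 4 (119108711 to 119137983, + strand), Hif1a on chromosome 12 (73901375 to 73947530, + strand) and P4ha1 on chromosome 10 (59323296 to 59373304, + strand) in the GENCODE annotation of GRCm38. The Hif1a stretch falls in the first intron of a longer annotated transcript.
Slc2a1: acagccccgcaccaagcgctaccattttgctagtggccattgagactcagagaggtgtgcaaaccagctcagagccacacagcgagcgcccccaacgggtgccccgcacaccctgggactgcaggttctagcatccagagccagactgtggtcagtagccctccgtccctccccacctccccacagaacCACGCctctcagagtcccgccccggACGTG
Hif1a: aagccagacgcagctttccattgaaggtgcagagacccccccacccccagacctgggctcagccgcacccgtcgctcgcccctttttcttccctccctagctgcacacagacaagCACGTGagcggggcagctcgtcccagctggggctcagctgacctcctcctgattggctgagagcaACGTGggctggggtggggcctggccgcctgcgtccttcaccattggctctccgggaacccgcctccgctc
P4ha1: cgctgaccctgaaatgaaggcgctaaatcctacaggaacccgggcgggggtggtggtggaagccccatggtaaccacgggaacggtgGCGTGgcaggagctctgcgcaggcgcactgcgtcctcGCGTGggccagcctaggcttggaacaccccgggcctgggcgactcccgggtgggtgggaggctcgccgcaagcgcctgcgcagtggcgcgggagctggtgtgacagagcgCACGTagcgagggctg

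These stretches held 2 matches for Slc2a1, 61 and 36 bases before its start, 3 for Hif1a and 3 for P4ha1. In Hif1a a pair of matches overlaps on opposite strands within the palindrome CACGTG, the core of the E-box that other factors bind. RefSeq start sites were at hand for 37 of the 40 genes, with 57 windows of 250 bases in all. A match was present in 45 of these 57 windows (78.9%) and in 38.6% of all 32851 windows of that length, and the palindrome in 12.3% and 6.02%. The 40 genes were chosen by role, HIF targets among them, and all windows were not matched to theirs for base composition. Some windows of the same gene overlapped, as for Eno1, so that a match could be counted more than once. Pfkfb1, which was higher in AKO mice, had 4 windows, of which 1 held a match. A match describes the sequence only.

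Isozyme pairs were compared as the log2 ratio of their normalized counts within each mouse, over 10 pairs. With 3 mice against 3 the smallest p of the exact two-sided permutation test is 0.1, which cannot pass 0.05, and the smallest Benjamini-Hochberg adjusted value over the 10 pairs was 0.5. P4ha2 over P4ha1 was -1.30, -1.70 and -1.72 in control 3, 4 and 5 and -1.26, -1.02 and -0.81 in AKO 3, 4 and 5. All AKO mice were above all controls, with a difference of 0.54 (exact permutation p = 0.1, adjusted 0.5). Pfkp over Pfkl was -0.18, 0.10 and -0.11 in control and -0.29, -0.58 and -0.26 in AKO mice, again without overlap, and differed by -0.31 (exact permutation p = 0.1, adjusted 0.5). The other 8 pairs overlapped. Epas1 over Hif1a was 2.27, 1.76 and 1.61 in control and 2.36, 2.72 and 1.97 in AKO mice, a difference of 0.47 (exact permutation p = 0.2, adjusted 0.5). Per kilobase, the ratio of Pfkm to Pfkl was 0.44 and 0.38 in control 3 and control 4, 0.36 in AKO 3, 0.95 in AKO 4, 1.5 in AKO 5 and 22.3 in control 5.

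Other genes of the same pathways were counted in a wider HIF list and a wider list of glucose metabolism. Of 29 further HIF regulators and targets, all of them tested, limma called 0, and 5 were lower and 0 higher at an unadjusted p under 0.05, against 5.27% and 3.08% of all genes. In 7 of 29 every AKO mouse was below every control mouse, which held for 8.16% of all genes. The median log2 fold change of the list was -0.18, with 20 of 29 below 0, and -0.12 without control 5. Without the 3 mice with muscle RNA it was -0.07, with 17 of 29 below 0.

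DESeq2 called 2 of the 29 genes lower, Hilpda and Hmox1, against 0.947% of all genes. Hilpda, a lipid droplet protein that inhibits lipolysis, was 2373, 1009 and 1106 in control and 714, 517 and 524 in AKO mice. Its log2 fold change was -1.26 ± 0.34 by limma (adjusted p = 0.522), -1.35 by DESeq2 (adjusted p = 0.0277) and -1.34 by edgeR (adjusted p = 0.569). Hmox1, which encodes heme oxygenase 1, was 3428, 4366 and 15533 in control and 2205, 991 and 2371 in AKO mice, with control 5 high. It differed by -1.83 ± 0.61 by limma (adjusted p = 0.557, and -1.16 without control 5), by -2.06 by DESeq2 (adjusted p = 0.0260) and by -2.05 by edgeR (adjusted p = 0.585). Both had non-overlapping groups. Without the 3 mice with muscle RNA Hilpda and Hmox1 differed by -1.11 and -0.81. Angptl4, an inhibitor of lipoprotein lipase, differed by -0.64 ± 0.22, Cited2, a transcriptional regulator that competes with HIF for coactivators, by -1.07 ± 0.41 and the mitophagy receptor Bnip3 by -0.48 ± 0.19, all with adjusted p above 0.5 by limma.

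The wider list of glucose metabolism held 30 genes, of which 28 were in the table and 26 were tested. Its median log2 fold change was 0.00, with 13 below 0 and 13 above, and it was 0.18 without control 5, with 8 below and 18 above. With all mice limma called 0 and found 1 of 26 lower and 0 higher at an unadjusted p under 0.05, against 5.27% and 3.08% of all genes. That gene was listed as Pgm1, with 934, 1176 and 1234 in control and 796, 457 and 517 in AKO mice (-0.95 ± 0.24, limma, adjusted p = 0.522). All AKO mice were below the controls, as in 8.16% of all genes. Without the 3 mice with muscle RNA Pgm1 differed by -0.40 and the median of the list was -0.03. Pdk3, Pck1, Pdp2 and Pdp1 followed by p, at -0.38 ± 0.19, 0.62 ± 0.35, 0.31 ± 0.18 and -0.24 ± 0.18. Pck1, which makes glycerol precursors for triglyceride in fat, was 141507, 232823 and 130003 in control and 287633, 316532 and 169383 in AKO mice, so that AKO 5 lay among the controls. Slc2a4, the insulin-responsive transporter GLUT4, differed by -0.15 ± 0.12.

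**Figure D5:**
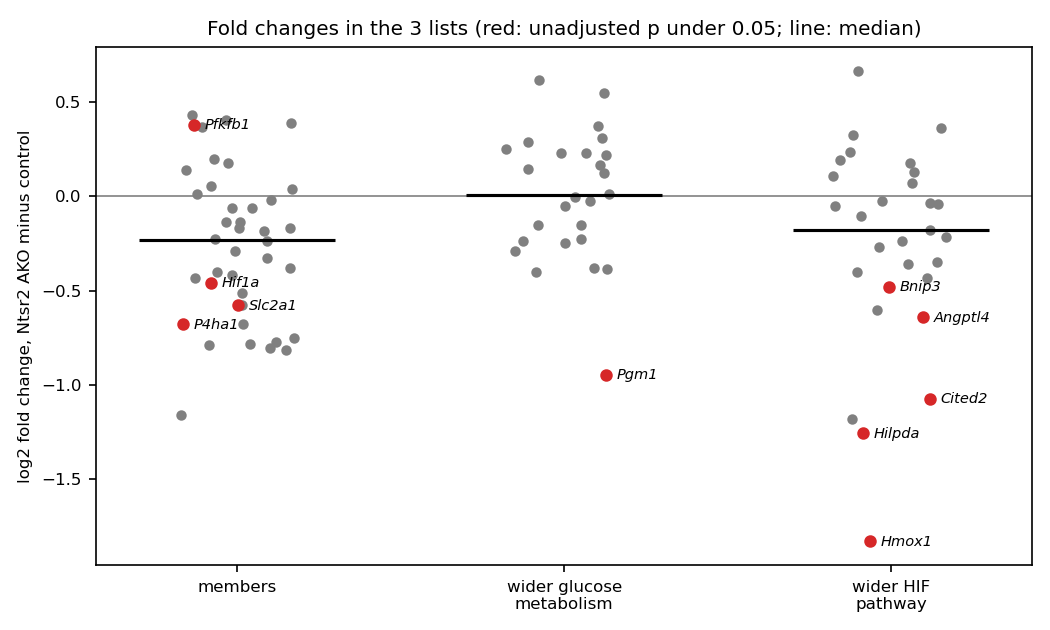
Log2 fold change of Ntsr2 AKO over control for the 40 genes, the 26 tested genes of wider glucose metabolism and the 29 genes of the wider HIF list, where red marks an unadjusted p under 0.05 by limma and the line is the median of each list (-0.23, 0.00 and -0.18). Hmox1 at -1.83 lies lowest in the wider HIF list.

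Markers of other cell types were read beside these results. The summed normalized count of 10 adipocyte markers was 2806458 to 4057549 in control and 3357164 to 3569816 in AKO mice. It was 34893 to 99832 and 37861 to 82970.2 for 8 of 9 macrophage markers that were in the table, 18960.3 to 31733 and 18213 to 26953 for 6 endothelial markers, and 51611 to 143074 and 52601 to 173810.1 for 5 erythroid markers. Brown or beige fat markers (7 genes) summed to 4597 to 8264 and 7648 to 12094, lymphocyte markers (6) to 173.6 to 794 and 295.5 to 334, epithelial markers (6) to 45.4 to 276 and 37.3 to 50.6, and mesothelial markers (4) to 57.8 to 128.8 and 80.0 to 109.9. The ranges of these sums overlapped between the groups. The most abundant markers were Cfd, Lyz2, Pecam1, Hbb-bs, Cidea, Nkg7, Cdh1 and Lrrn4, in the order of these lists. Cidea, a lipid droplet protein of brown and beige fat, had normalized counts of 2134, 4167 and 3345 in control and 4513, 5122 and 6410.3 in AKO mice. Every AKO mouse was thus above every control mouse, as in 6.82% of all genes, while the other brown or beige fat markers overlapped between the groups. Of the 6 brown or beige fat markers tested, 2 had a log2 fold change below 0 and 1 had an unadjusted p under 0.05 by limma. Ucp1, Elovl3, Ms4a1, Epcam, Krt8, Krt18, Krt14, Cldn3, Msln, Upk3b and Wt1 were at 0 in at least 1 mouse, as were the muscle genes Ckm, Myh1, Myh2, Myh4, Tnni2, Actn3, Pvalb and Atp2a1 in at least 1 of control 3, control 4 and AKO 3. The part of cell composition in the values of Slc2a1, Hif1a, P4ha1 and Pfkfb1 was not tested beyond the muscle markers. With the mean log2 value of the muscle markers as a covariate, limma called 0 of 40 genes. In that fit Slc2a1, Hif1a, P4ha1 and Pfkfb1 differed by -0.58, -0.46, -0.69 and 0.39. Pfkm, Aldoa and Gapdh differed by -1.10, -0.79 and -0.69 with the covariate and by -0.77, -0.67 and -0.57 without it. Without control 5 their differences were 1.05, 0.03 and 0.11. The covariate thus did not take out the muscle RNA of control 5, and the fit is no adjustment for it.

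Reads could not be assigned by strand, since no source used here states whether the counting was stranded. Of the 40 genes, 19 overlap an annotated gene on the opposite strand, among them Slc2a1, Hif1a and Pfkfb1. Gapdh, Aldoa, Ldha, Pgk1, Pgam1, Eno1, Tpi1 and Pkm have processed pseudogene copies, and how reads shared with such copies were counted is not stated.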

How the data were processed

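RNA from adipose tissue of 3 control and 3 Ntsr2 AKO mice had been sequenced, and the authors trimmed reads with Trimmomatic, aligned them with Hisat2 to mm10 (per the labels), quantified them with StringTie and used DESeq2. The deposited table holds a signal for each of 21456 genes in each mouse, namely counts that the authors normalized, and the annotation and version of each tool are not given in the sources used here. Each column was divided by its step, which gave whole reads for 100% of values (tolerance 0.01). Because such values are no raw counts, a test on a log scale came first.

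A pseudocount of 1 was added before taking log2, and limma 3.58.1 in R 4.3.3 tested the 16157 genes whose mean was at least 10 (eBayes with trend) over the 6 mice, with Benjamini-Hochberg adjustment over all of them and a threshold of 0.05. A fold change on this scale understates the change of scarce genes. As alternatives, the recovered reads went into edgeR 4.0.16, which called 0 genes (1323 at an unadjusted p under 0.05), and into DESeq2 1.42.0, which called 219. With 3 mice in a group, a p-value sets the difference between groups against the spread between these mice. In limma that spread was moderated by a trend over all genes tested. No 2 columns of the same group were identical or as close as sampling noise. Ratios of isozymes were tested by exact permutation. Fits were tested on simulated counts with known changes.

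The 40 genes and the lists were chosen with earlier results of these data known, and 1 gene of the wider HIF list and 1 lymphocyte marker are not reported here. The text names any member, Ntsr2, genes of a wider list that passed the threshold together with the 5 of smallest p among those reported, and for each marker list its highest genes and those at 0. Slc2a4 and marker genes outside that rule were named after their values were seen. Positions and exons are from GENCODE M21 (GRCm38) and sequences from RefSeq (GRCm38.p6). The alternatives are given in the closing section. The omission of the 3 mice with muscle RNA was chosen after seeing the data.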

Additional observations from a re-analysis of the deposited data

How the results depend on the processing

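P4ha1, Hif1a, Slc2a1 and Pfkfb1 were among 17 of the 40 genes that kept their direction under all 18 alternatives, with log2 fold changes from -0.79 to -0.58, -0.51 to -0.34, -0.67 to -0.49 and 0.28 to 0.48. Their groups did not overlap, so omission of mice or another pseudocount could not turn their direction. The share of all genes that kept their direction was not counted. limma called 1 gene of all those tested. Without the filter, without the trend, with the muscle covariate, with edgeR and without any 1 mouse (0 to 0 genes) the count was 0. With DESeq2 it was 219, where 2 of the 40 genes were called. The samples share the numbers 3, 4 and 5. The deviations of same-numbered mice correlated at 0.45, -0.24 and 0.41, and those of differently numbered mice at -0.52 to 0.26. These values do not settle whether the mice were paired, and the main fit did not pair them. With the number as a block limma called 0 genes, and 7 of the 40 rather than 4 had an unadjusted p under 0.05 (5 lower and 2 higher), as had 1303 of all 16157 genes. Without the 3 mice with muscle RNA only AKO 3 was left in its group, so that no count of genes by p is given for that fit. Quantile normalization moved the median of all genes by 0.05.

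Omission of 1 mouse at a time gave a median over the 40 genes from -0.34 to 0.02. The log2 fold changes then spanned 0 for Slc2a3 (-0.37 to 0.08), Hk2 (-0.80 to 0.07), Gpi1 (-0.41 to 0.04), Pfkm (-1.77 to 1.05), Aldoa (-1.10 to 0.03), Tpi1 (-0.65 to 0.05), Gapdh (-1.06 to 0.11), Pgk1 (-0.79 to 0.09), Pgam1 (-0.10 to 0.07), Eno1 (-0.00 to 0.36), Pkm (-0.82 to 0.19), Ldha (-0.50 to 0.02), Ldhb (-0.04 to 0.13), Slc16a3 (-1.90 to 1.11), Pdk2 (-0.40 to 0.06), Epas1 (-0.11 to 0.18), Arnt (-0.06 to 0.13), Vegfa (-0.50 to 0.18), Ankrd37 (-2.12 to 0.15), Ndrg1 (-0.23 to 0.27) and Higd1a (-0.10 to 0.40), and the ratios of Hk2/Hk1 (-0.31 to 0.63), Pfkm/Pfkl (-1.96 to 0.97), Aldoc/Aldoa (-1.33 to 0.09), Ldhb/Ldha (-0.05 to 0.57) and Slc16a3/Slc16a1 (-1.71 to 1.41). Control 5 was the mouse whose omission turned 14 of the 40 genes. Without the 3 mice with muscle RNA the sign turned for Slc2a3 (0.10), Gpi1 (0.04), Eno1 (-0.19), Ldhb (-0.09), Slc16a1 (0.02), Pdk2 (0.08), Epas1 (-0.00), Egln1 (0.09), Vegfa (0.66) and Higd1a (-0.46), and the lone AKO mouse was assumed to vary like the controls. Quantile normalization turned Pgam1 (0.11), Vegfa (0.00) and Ndrg1 (0.04), the muscle covariate Vegfa (0.00), edgeR Vegfa (0.04) and Ankrd37 (0.46), and DESeq2 Vegfa (0.04) and Ankrd37 (0.46). The cause was not tested. Aldoc, Ankrd37 and Car9 had few reads, so that counting error adds to their spread.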
